A study of Mus musculus with 6 samples.

Results

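The miR-183 cluster, the miR-212 and miR-132 pair, the miR-221 and miR-222 pair and miR-210, known from other work to respond to signals that reach activated T cells, were examined on arrays that compared mouse natural regulatory T cells with conventional CD4+ T cells. The 8 probes were taken by their IDs from the 171 miRNA probes of the array. They were 1org-183, 1org-96 and 1org-182 of one cluster, 2org-212 and 1org-132 of another, 2org-221 and 2org-222 of another, and 2org-210. Each of 6 two-colour arrays held total RNA of CD4+CD25+ cells (labelled CD4+25+) beside total RNA of CD4+CD25- cells (labelled CD4+25-). The series describes 3 biological replicates, each hybridised again with the dyes exchanged, and CD4+CD25+ RNA was in Cy5 on arrays 1, 3 and 5 and in Cy3 on arrays 2, 4 and 6. The sources used here do not give strain, age, tissue of origin, the sort or any stimulation of the cells. Since each value is a ratio of both samples, no miRNA level is known, and the labelled cell types could not be checked against the level of a marker.

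MicroRNAs (miRNAs) are short RNAs that guide a silencing complex to messenger RNAs, chiefly through pairing of their seed, the bases from position 2 to position 8. miRNA genes that lie close together are often copied as one transcript, so their hairpins can rise together, although each mature miRNA is then processed and degraded on its own. The miR-183 cluster is well known in sensory organs, and in T cells interleukin-2 induces miR-182, which targets the transcription factor gene Foxo1. The miR-212 and miR-132 genes are induced by the transcription factor CREB and are much studied in neurons. miR-221 and miR-222 target the cell cycle inhibitor p27Kip1 and the receptor Kit, and miR-210 is induced by the hypoxia factor HIF-1. CD25 is a chain of the interleukin-2 receptor, carried by regulatory T cells at rest and by other T cells after activation.

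The mature sequences below, from RefSeq on GRCm38.p6, show which of the 8 miRNAs have a seed in common. All 8 IDs matched by miRNA number. The array's annotation gave a gene symbol for 3 of the 8 (1org-182, 1org-96 and 2org-212), and the probe IDs name no arm, so the arm shown is the one that the plain name usually stands for. Each sequence runs 5′ to 3′ with the seed in capitals.
miR-183-5p: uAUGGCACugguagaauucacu
miR-96-5p: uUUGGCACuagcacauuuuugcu
miR-182-5p: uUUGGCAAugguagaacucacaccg
miR-212-3p: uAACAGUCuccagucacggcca
miR-132-3p: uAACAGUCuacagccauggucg
miR-221-3p: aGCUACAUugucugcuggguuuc
miR-222-3p: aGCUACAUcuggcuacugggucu
miR-210-3p: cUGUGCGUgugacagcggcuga

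The 8 miRNAs held 6 seeds. miR-212 and miR-132 had the same seed, and so did miR-221 and miR-222. Counted from the 5′ end, the seed of miR-96 differed from that of miR-183 by U2A and from that of miR-182 by C8A, so these 3 seeds were alike but not the same. Aligned from the 5′ end without gaps, miR-183 and miR-182 were identical at 18 of 22 positions, miR-212 and miR-132 at 17 of 22, and miR-221 and miR-222 at 11 of 23. The probe sequences were not used here, and cross-hybridisation between members as alike as these was not tested. Of 157 other miRNA probes without a star in their ID, all but 25 matched a RefSeq miRNA by number, and 0 of those matched had an arm with a member's seed. The let-7 probes, whose IDs hold only a number and a letter, were looked up as miR-7, so their own seeds were not checked.

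RefSeq places the hairpins of miR-183 (chr6:30169668-30169737), miR-96 (chr6:30169446-30169551) and miR-182 (chr6:30165918-30165992) on the minus strand of GRCm38.p6, within 3820 bases. The hairpins of miR-212 (chr11:75173388-75173478) and miR-132 (chr11:75173682-75173747) lie on the plus strand within 360 bases. Those of miR-221 (chrX:19146294-19146388) and miR-222 (chrX:19146893-19146971) lie on the minus strand within 678 bases, and miR-210 lies alone among the 8 on the minus strand at chr7:141221384-141221493. The arrays' own files name no genome build, so these positions belong to the RefSeq genes and not to the probes.

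Values below are log2 ratios, CD4+CD25+ to CD4+CD25- cells, with the base taken as log2 and the deposited ratio read as Cy5 over Cy3, so that the sign of arrays 2, 4 and 6 was turned. Cy5 over Cy3 is the likely reading because Cy5 is the labels' channel 2, but neither base nor direction is stated. The turned arrays did not match those of the opposite dye closely. Over the 171 miRNA probes, the correlation was -0.251 to 0.369 between arrays of opposite dye, 0.521 to 0.622 among the arrays with CD4+CD25+ in Cy5 and 0.901 to 0.918 among those with CD4+CD25+ in Cy3 (a description across probes, which are not independent replicates). The turned array medians were -0.085, -0.31 and 0.097 on arrays 1, 3 and 5, and 1.83, 1.29 and 1.82 on arrays 2, 4 and 6. For this reason each member is given relative to the median miRNA probe of its array, and then without that centring. Means have an SD over 3 replicates, each the mean of arrays of opposite dye. The labels do not pair the arrays, so all 6 pairings were fitted, and the highest SD and adjusted p among them are printed. The series calls the replicates biological, but nothing says that they came from separate animals. The p-values therefore cover only the spread between these samples, which may be partly technical.

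Relative to the array median, none of the 8 members differed between the cell populations by the criterion used, a limma adjusted p under 0.05 in every pairing. The count was 0 higher and 0 lower of 8, against 5.26% of all 171 miRNA probes called higher and 22.8% called lower. At an unadjusted p under 0.05, 2 of the 8 passed, miR-221 and miR-222. At least 28.1% of all 171 probes passed it too, those called in either direction after adjustment. A limma fit of the 6 arrays with a column for the dye called 1 member, miR-221, as higher. It called 52 of the 171 probes, 13 of them higher. The 8 means ran from -0.17 (miR-132) to 0.50 (miR-221) around a median of 0.056, and the median over all 171 probes was 0.051. Of the 48 single values (8 members on 6 arrays), 44, or 91.7%, lay within 1 median absolute deviation (scaled to estimate an SD) of their array's median, compared with 66.5% of all values. The plot of each member on the 6 arrays shows these values, and the plot of ranks shows where the means lie among all probes.

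**Figure D1:**
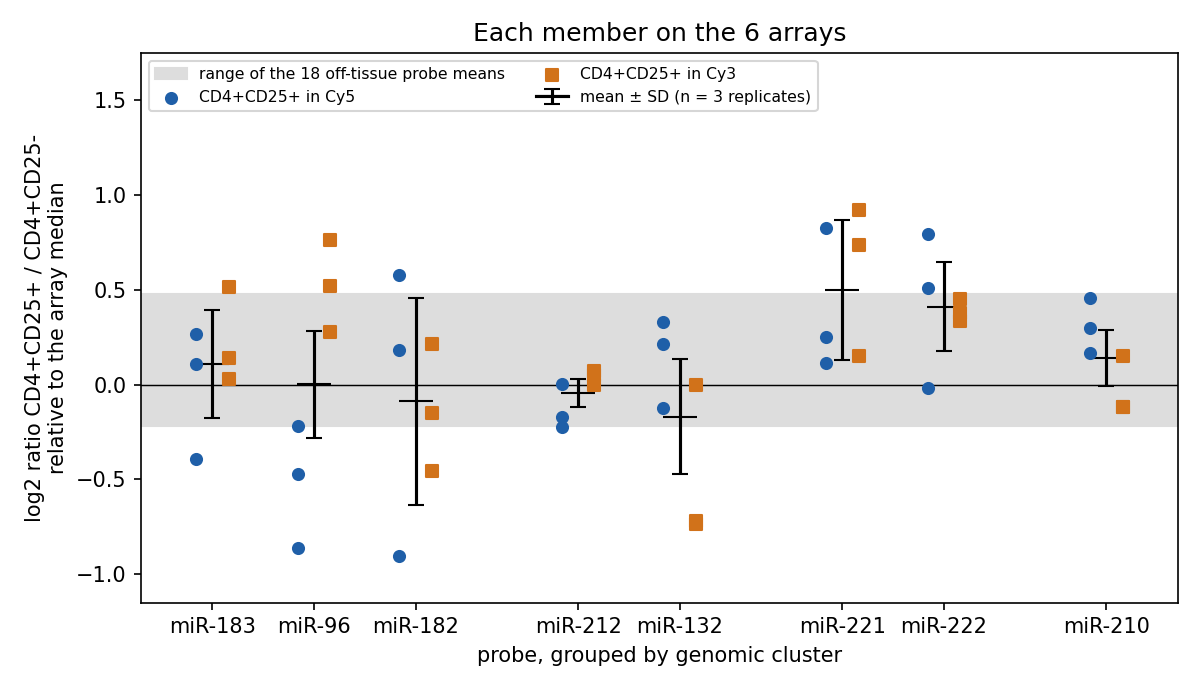
Log2 ratio, CD4+CD25+ to CD4+CD25- cells, relative to the array median (y axis) for the 8 probes (x axis, grouped by cluster). Circles are the 3 arrays with CD4+CD25+ in Cy5, squares the 3 with CD4+CD25+ in Cy3, bars the mean ± SD (n = 3), and the grey band the range of the 18 off-tissue probe means (-0.22 to 0.48). miR-221 is the only member above 0 on all 6 arrays, and the circles and squares of miR-96 do not overlap.

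miR-221 and miR-222 stood highest of the members. miR-221 had 0.12, 0.25 and 0.83 on arrays 1, 3 and 5, and 0.74, 0.15 and 0.92 on arrays 2, 4 and 6, each relative to the array median. It was above the median on 6 of 6 arrays, as were 5.85% of all probes, and both dye orientations overlapped. Its mean of 0.50 ± 0.370 (SD, n = 3), or 1.41-fold, ranked 12 of 171 and missed the threshold (limma adjusted p = 0.0628). The 95% interval of the limma fit, the widest over the pairings and not adjusted for the number of probes, was 0.10 to 0.90.

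miR-222, which has the same seed, had 0.80, -0.020 and 0.51 on arrays 1, 3 and 5 and 0.45, 0.34 and 0.38 on arrays 2, 4 and 6. It was above the median on 5 of 6 arrays, lowest on array 3, and its mean of 0.41 ± 0.235 (SD, n = 3), or 1.33-fold, ranked 19 (limma adjusted p = 0.115, interval 0.017 to 0.80). The difference of miR-221 minus miR-222 ran from -0.68 on array 1 to 0.54 on array 6, with a mean of 0.090 ± 0.460 (SD, n = 3), so the pair did not separate beyond the spread. As a cluster the pair had a mean of 0.45 ± 0.248 (SD, n = 3), above 0 on 6 of 6 arrays, from 0.11 on array 3 to 0.67 on array 5. Of the 9 omissions of a pair of opposite arrays, 1 called miR-221, that of arrays 3 and 4, with 0.65 (limma adjusted p = 0.0429). Over the 9, its mean ran from 0.31 without arrays 5 and 6 (adjusted p = 0.381) to 0.68, and without arrays 5 and 2 it was 0.36 (adjusted p = 0.355). Centred on the median of the off-tissue probes described further on, the pair's mean was 0.25, with 0.29 for miR-221 (adjusted p = 0.554) and 0.20 for miR-222 (adjusted p = 0.743).

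The miR-183 cluster, whose miR-182 responds to interleukin-2, lay at the array median, with a cluster mean of 0.0082 ± 0.170 (SD, n = 3). miR-183 itself had -0.39, 0.11 and 0.27 on arrays 1, 3 and 5 and 0.030, 0.14 and 0.51 on arrays 2, 4 and 6. Its array 1 value was the lowest and the only one below the median, and the orientations overlapped. The mean was 0.11 ± 0.286 (SD, n = 3; limma adjusted p = 0.772, interval -0.28 to 0.50).

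miR-182 was the most uneven of the 8 members by SD. It had 0.58, -0.90 and 0.18 on arrays 1, 3 and 5 and -0.46, 0.22 and -0.15 on arrays 2, 4 and 6, so arrays of the same dye lay on both sides of the median. The mean was -0.088 ± 0.547 (SD, n = 3; limma adjusted p = 0.820, interval -0.54 to 0.36). A further probe, 2org-182*, which is not among the 8 and whose strand is not stated, had -0.061 ± 0.434 (SD, n = 3). It was also lowest on array 3, at -0.97, where miR-182 was lowest.

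miR-96 moved with the dye. It had -0.86, -0.47 and -0.22 on arrays 1, 3 and 5 and 0.76, 0.52 and 0.28 on arrays 2, 4 and 6, so the orientations did not overlap and had opposite signs. Its mean of 0.00083 ± 0.282 (SD, n = 3; limma adjusted p = 0.997) is the average of these opposed values. The orientation with CD4+CD25+ in Cy5 stood 1.04 lower than the other (limma adjusted p of the dye column = 0.0136). miR-96 was the 1 member of 8 with a dye effect after centring, compared with 45.6% of all miRNA probes.

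Within this cluster, miR-182 exceeded miR-183 on 2 of 6 arrays (mean difference -0.20 ± 0.685, SD, n = 3) and miR-96 on 2 of 6 (-0.088 ± 0.701), while miR-183 exceeded miR-96 on 4 of 6 (0.11 ± 0.273). Each of these mean differences was smaller than its SD. Differences between probes or between clusters were not tested, since the smallest two-sided p of an exact sign-flip test over 3 replicates is 0.25.

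The miR-212 and miR-132 pair, targets of CREB signalling, also lay near the median, with a cluster mean of -0.11 ± 0.171 (SD, n = 3). miR-212 was the steadiest of the 8, with -0.17, 0.0020 and -0.22 on arrays 1, 3 and 5 and 0.052, 0.071 and 0 on arrays 2, 4 and 6, where on array 6 it was itself the median probe. Its mean was -0.045 ± 0.0754 (SD, n = 3; limma adjusted p = 0.881), and the interval of -0.44 to 0.35 is wider than this SD implies since limma pools the variance over probes.

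miR-132, with the same seed, had 0.33, 0.22 and -0.12 on arrays 1, 3 and 5 and -0.72, -0.0040 and -0.74 on arrays 2, 4 and 6. Arrays 2 and 6 stood well below the other 4, and the orientations overlapped only through arrays 4 and 5. The mean was -0.17 ± 0.303 (SD, n = 3; limma adjusted p = 0.591, interval -0.56 to 0.22), the lowest of the 8. miR-132 exceeded miR-212 on 3 of 6 arrays, those with CD4+CD25+ in Cy5, with a mean difference of 0.27 there and -0.53 on the other 3.

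miR-210, the hypoxia-induced miRNA, had 0.46, 0.17 and 0.30 on arrays 1, 3 and 5 and 0.15, -0.12 and -0.12 on arrays 2, 4 and 6. The arrays with CD4+CD25+ in Cy5 were all higher than the other 3, a difference of 0.33 that did not pass (limma adjusted p of the dye column = 0.415). Its mean was 0.14 ± 0.146 (SD, n = 3; limma adjusted p = 0.689, interval -0.25 to 0.53), at rank 60.

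**Figure D2:**
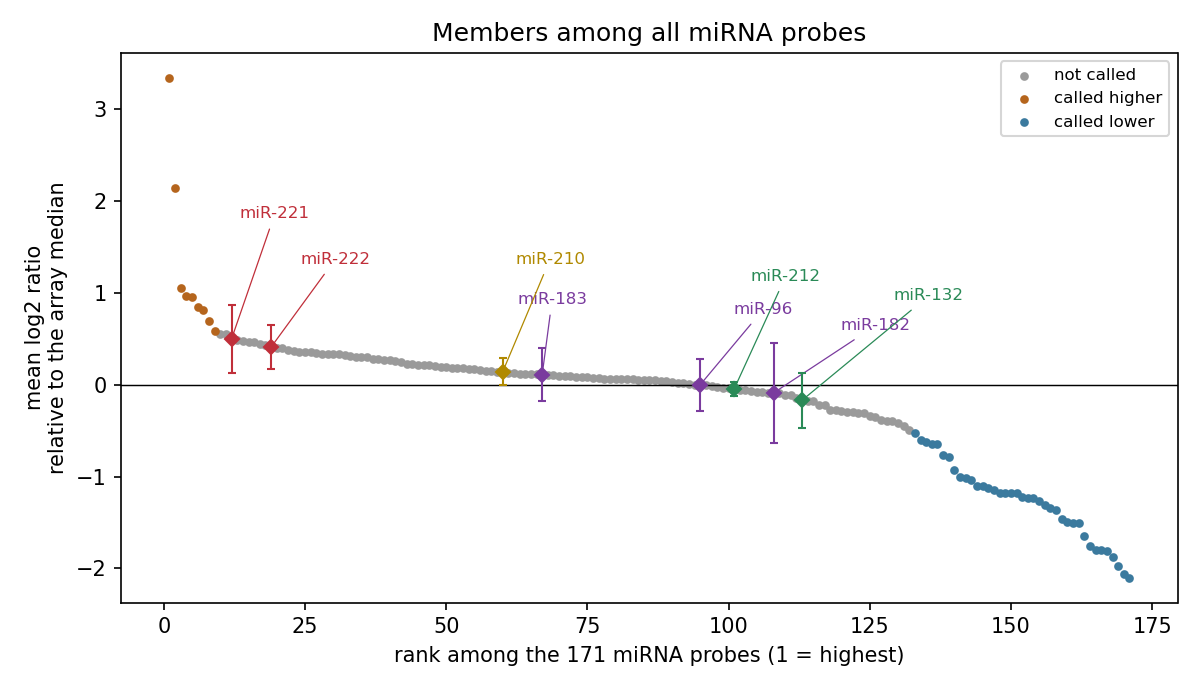
Mean log2 ratio relative to the array median (y axis) against rank (x axis) for the 171 miRNA probes, with probes called higher or lower coloured and the 8 members as diamonds with SD bars (n = 3). miR-221 and miR-222 rank 12 and 19, close behind the 9 probes called higher, and the other 6 members lie on the flat middle of the curve.

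By cluster the order from highest to lowest was the miR-221 and miR-222 pair, miR-210, the miR-183 cluster and the miR-212 and miR-132 pair. The gap of 0.31 ± 0.222 (SD, n = 3) between the miR-221 pair and miR-210 held on 4 of 6 arrays. The miR-183 cluster was lower than the miR-221 pair on 5 of 6 arrays (difference -0.45 ± 0.179), and the miR-212 pair was lower on 6 of 6 (-0.56 ± 0.418). Differences among the lower 3 (miR-183 cluster minus miR-210 -0.13 ± 0.227, miR-183 cluster minus the miR-212 pair 0.12 ± 0.279, miR-212 pair minus miR-210 -0.25 ± 0.269) were all within 1 SD, so these neighbours did not differ beyond their spread.

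Without centring, all 8 members passed as higher in CD4+CD25+ cells, as did 67.3% of all miRNA probes, while 8.77% passed as lower. Centring moved every mean by the same amount, so the order of the members was the same. The ratios were 1.27 ± 0.573 (SD, n = 3; limma adjusted p = 0.00569) for miR-221, or 2.42-fold, 1.18 ± 0.466 (adjusted p = 0.00569) for miR-222 and 0.91 ± 0.355 (adjusted p = 0.00820) for miR-210. miR-183 had 0.88 ± 0.440 (adjusted p = 0.00803), miR-96 0.77 ± 0.414 (adjusted p = 0.0141) and miR-182 0.69 ± 0.534 (adjusted p = 0.0283). miR-212 had 0.73 ± 0.182 (adjusted p = 0.0123) and miR-132 the lowest ratio, 0.60 ± 0.143 (adjusted p = 0.0368). After scaling of the arrays to one spread, miR-96 (0.54, adjusted p = 0.0525) and miR-132 (0.52, adjusted p = 0.0616) no longer passed.

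The higher calls rested on one dye orientation. With CD4+CD25+ in Cy5 the 8 uncentred means lay between -0.62 (miR-96) and 0.33 (miR-222) and 0 of 8 passed, and with CD4+CD25+ in Cy3 they lay between 1.16 (miR-132) and 2.25 (miR-221). Without centring, 0 of 8 members were above 0 on 6 of 6 arrays. If the authors had already turned the swapped arrays, all 8 would instead pass as lower, from -0.56 (miR-132) to -1.39 (miR-96), among 91 of the 171 probes called, 88 of them lower. Relative to the array median miR-96 alone of the 8 would then pass, at -0.52 (adjusted p = 0.0292), among 77 of 171 called, 18 of them lower. After turning, miR-223, the highest ranked of the 171 probes, had 3.62, 3.54 and 4.99 on arrays 1, 3 and 5. It had 4.90, 2.93 and 4.71 on arrays 2, 4 and 6, so its deposited sign changed with the dye. Whether the authors had turned the arrays was not tested.

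**Figure D3:**
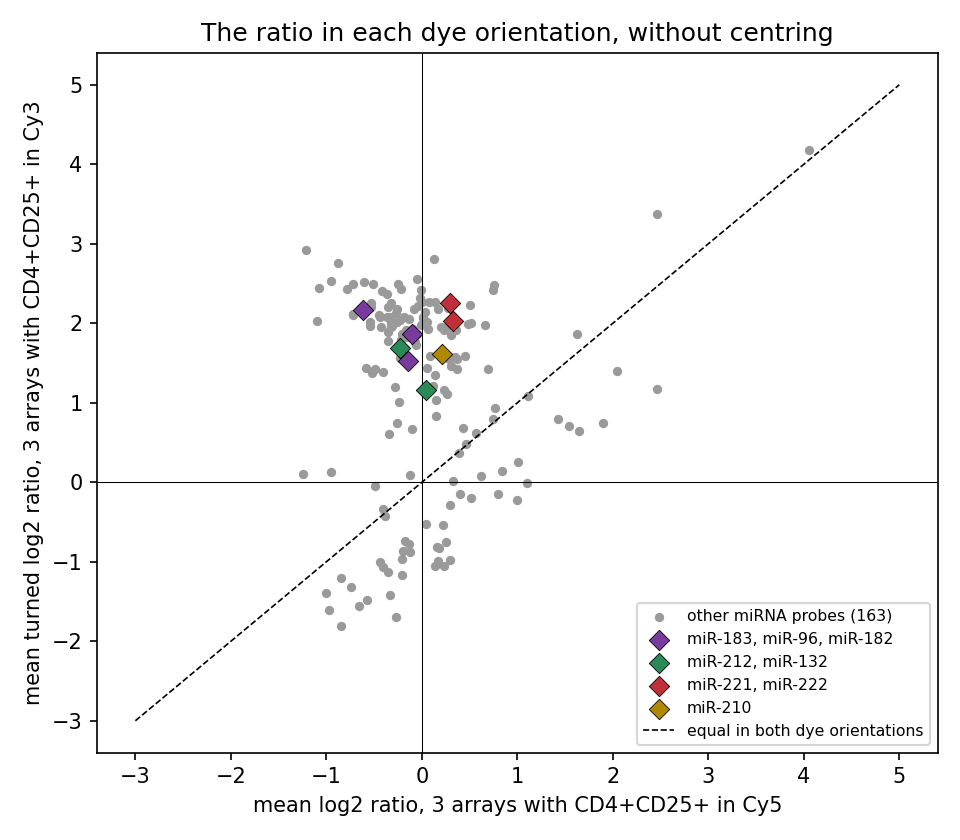
Mean uncentred log2 ratio of each miRNA probe on the 3 arrays with CD4+CD25+ in Cy5 (x axis) against the turned mean on the 3 with CD4+CD25+ in Cy3 (y axis), with the members as diamonds and the dashed line marking equal ratios. The 8 members lie in the dense group near 0 on the x axis and between 1.16 and 2.25 on the y axis, above the line.

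The members had many probes beside them in both orientations. The range they spanned, from -0.62 to 0.33 in one orientation and from 1.16 to 2.25 in the other, held 59 of the 163 other miRNA probes, or 36.2%. Among these were 8 of the 18 off-tissue probes, which are for miRNAs best known from epithelium, muscle, nervous system and liver and serve here as a reference for T cells. Relative to the array median the off-tissue means ran from -0.22 to 0.48 with a median of 0.098, and 7 of the 8 members lay inside that range. miR-221, at 0.50, lay just above it.

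**Figure D4:**
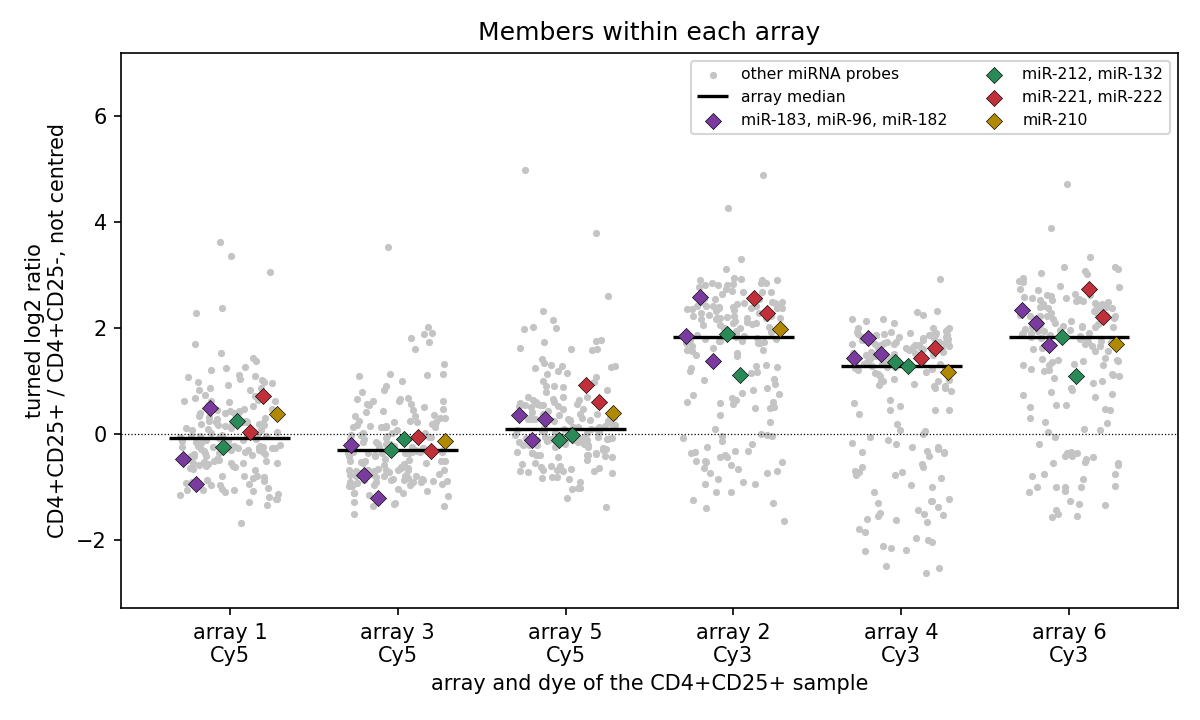
Turned log2 ratio without centring (y axis) on each array (x axis, with the dye of the CD4+CD25+ sample), with black lines for array medians and diamonds for the members. The medians are between -0.31 and 0.097 on arrays 1, 3 and 5 and between 1.29 and 1.83 on arrays 2, 4 and 6, and the members move with them.

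Since the miR-183 cluster and miR-132 are also made by neurons and epithelia, and miR-221 and miR-222 by vessels and stroma, lists for those cell types were set beside them. Relative to the array median, 0 of 7 neural probes (median 0.11, range -0.030 to 0.48), 0 of 6 epithelial probes (median -0.058, range -0.22 to 0.31) and 0 of 7 endothelial or stromal probes (median 0.050, range -0.18 to 0.32) were called in either direction. The muscle list (0 of 4 called, median 0.25), the liver probe miR-122a (0.089) and the erythroid probe miR-144 (-0.079) were also uncalled. The myeloid miR-223 was called higher, at 3.34. The endothelial or stromal list left out 1org-126*, which was called higher at 0.59 (limma adjusted p = 0.025). It also left out 1org-199-s (0.43) and 1org-199-as (0.36), which were not called. The part of such cells in the members' ratios was not tested. By ID prefix, the centred medians were 0.045 for 127 probes named 1org and 0.081 for 44 named 2org, and on array 6 they were -0.090 and 0.22. Centring within the prefix moved miR-210 from 0.14 to 0.065.

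Other miRNAs that rise on T cell activation were not all placed like the 8. Of 6 in the list, 2 were called higher relative to the array median, beside 5.26% of all miRNA probes. These were miR-146 at 0.95 (limma adjusted p = 0.00161) and miR-214 at 2.14 (adjusted p = 0.00145). Relative to the array median, miR-146 was 2.14 with CD4+CD25+ in Cy5 and -0.25 with it in Cy3, and above 0 on 4 of 6 arrays. miR-214 was uneven, with an SD of 1.35 (n = 3). It had 0.539 and 0.644 on arrays 3 and 4, and 3.44, 2.443, 3.692 and 2.075 on arrays 1, 2, 5 and 6. The 4 not called were miR-155, a miRNA of activated lymphocytes, at 0.46 (adjusted p = 0.0883), miR-21 at 0.35 (adjusted p = 0.184), miR-31 at 0.30 (adjusted p = 0.268) and miR-18, of the miR-17-92 cluster, at 0.016 (adjusted p = 0.966). Of the miR-17-92 cluster the list held only miR-18. Outside the list, 2org-17-5p (-1.02), 2org-19a (-1.8), 1org-20 (-1.76) and 1org-92 (-1.1) were called lower, and 2org-17-3p (0.55) was not called. The list median was 0.41, compared with 0.056 for the 8 members. The uncentred ratio of miR-155 split by dye as theirs did, 0.27 with CD4+CD25+ in Cy5 and 2.19 with it in Cy3, while miR-146 (2.04 and 1.40) and miR-21 (1.54 and 0.71) were higher with CD4+CD25+ in Cy5. In the list of 15 probes for miRNAs high in resting T cells, 13 were called lower relative to the array median, beside 22.8% of all miRNA probes, and 0 higher, around a median of -1.46. That list also split by dye, with a centred median of -0.34 with CD4+CD25+ in Cy5 and -2.65 with it in Cy3. Without centring, 10 of the 15 were called lower, beside 8.77% of all miRNA probes, and 1 higher.

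The probes whose centred values on the 6 arrays were closest to each cluster's mean profile were also not called. By root mean square difference they were 1org-291-s (0.192), 1org-293 (0.199) and 1org-148 (0.224) for the miR-183 cluster, of which miR-291 and miR-293 belong to an embryonic stem cell cluster. For the miR-212 pair they were 1org-30a (0.253), the let-7 probe 1org-7e (0.291) and 2org-181c (0.338). Those nearest the miR-221 pair were 1org-187 (0.243), 1org-31 and 1org-34a (0.298 each), and those nearest miR-210 were 2org-105 (0.233), 2org-34 (0.274) and 1org-31 (0.298). These distances are descriptions over 6 arrays and carry no test.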

How the data were processed

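The deposited values are the authors' log ratios between channels for 178 probes on 6 arrays (171 miRNA probes, 7 for small nuclear RNAs or tRNAs), taken as log2. Log base, background correction, normalization and scanner: not given in the sources used here, so dim probes could not be marked. Arrays with CD4+CD25+ in Cy3 were multiplied by -1 and each array centred on the median of its miRNA probes. limma (version 3.58.1, R 4.3.3) fitted an intercept with eBayes to 3 replicate values per probe over all 6 pairings of opposite-dye arrays, with Benjamini-Hochberg adjustment over the 171 probes; a call needed an adjusted p under 0.05 in each. Dye effects came from limma on 6 arrays with a dye column. The steps were tested on simulated data. Named probes were the members, the other activation-induced miRNAs, any probe with a member's seed and the 3 probes nearest each cluster. Named besides were 2org-182*, the marker probes miR-223, miR-122a and miR-144, and probes that the lists left out. These last were 1org-126*, 1org-199-s, 1org-199-as, 2org-17-5p, 2org-17-3p, 2org-19a, 1org-20 and 1org-92. The members and lists were chosen with earlier results of these data known. The number of arrays limits precision.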

Additional observations from a re-analysis of the deposited data

Results flagged for a closer look

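The probe for miR-96 (1org-96) differed between the dye orientations: relative to the array median, the arrays with CD4+CD25+ in Cy5 minus those with it in Cy3 gave -1.04 (limma adjusted p of the dye column = 0.0136), with means of -0.52 and 0.52. All 3 arrays of each orientation lay on one side of the median. Without centring all 8 members had a dye effect, in the same direction as 1org-96, as part of 120 of the 171 probes with one.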

How the results depend on the processing

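The zero point decided the calls. Centring on the small nuclear RNA and tRNA probes called 8 of 8 members higher, among 126 of 171 probes called, with cluster means of 1.11 (miR-183 cluster), 1.00 (miR-212 pair), 1.56 (miR-221 pair) and 1.25 (miR-210), and turned miR-182 to 1.02, miR-212 to 1.06 and miR-132 to 0.93. Off-tissue centring moved the means of the miR-183 cluster, miR-212 pair and miR-210 to -0.20, -0.32 and -0.066, and put the miR-221 pair at 0.25 (adjusted p = 0.554 for miR-221 and 0.743 for miR-222). Relative to the array median, the 6-array dye model called 1 member (52 of 171 probes). On that scale, arrays with CD4+CD25+ in Cy3 alone called 2 (miR-96 and miR-221, with 98 of 171 probes). Leaving out a pair of opposite arrays called 0 to 1 member, with 21 to 49 of 171 probes called. There 9 of 72 member values turned sign, such as miR-182 between -0.33 and 0.21. By orientation the miR-183 cluster was -0.19 (Cy5) and 0.21 (Cy3), and miR-210 0.31 and -0.027. With no array turned 1 member was called, miR-96 at -0.52 (77 of 171 probes), and the cluster means were -0.20 (miR-183 cluster), 0.11 (miR-212 pair) and -0.041 (miR-221 pair). Without centring, the same omissions gave 0 to 8 called members, and none turned sign. The count was 0 without arrays 3 and 2 or 5 and 6, with 0 and 2 of 171 probes called. It was 2 without 1 and 6 (64 of 171 probes), 3 without 1 and 2 (59) and 4 without 5 and 2 (80). Arrays with CD4+CD25+ in Cy5 alone called 0 (19 of 171 probes), with miR-183, miR-96, miR-182 and miR-212 turned to -0.10, -0.62, -0.15 and -0.23. With no array turned all 8 were lower (91 of 171 probes called): -0.99 (miR-183), -1.39 (miR-96), -0.83 (miR-182), -0.96 (miR-212), -0.56 (miR-132), -0.98 (miR-221), -0.85 (miR-222) and -0.71 (miR-210). A dye effect was called for 8 members and 120 of 171 probes without centring. Centring on all probes or within the ID prefix, pairing by title number, scaling and robust eBayes left the count of 0 called relative to the array median as it was. Signal over background is unknown.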
